A study of Homo sapiens with 6 samples.

Results

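The genes for the enzymes that place and remove methyl and acetyl groups on histones were examined in 2 Ewing sarcoma cell lines after inhibition of CDK7. The members were the protein-coding genes of the deposited expression table whose symbol starts with KMT, SETD, KAT, KDM, HDAC or SIRT followed by a digit, and there were 59 of them among 27420 listed genes, of which 20311 are protein-coding. By name, 22 are writers, comprising 15 methyltransferase symbols (KMT and SETD) and 7 acetyltransferases (KAT). The other 37 are erasers, comprising 19 demethylases (KDM), 11 histone deacetylases (HDAC) and 7 sirtuins (SIRT). KDM5D, an eraser on the Y chromosome, is counted as a member but its values are not given, so that 58 members are described. Symbols do not always name an activity: SETD3 methylates actin, KMT2E is not known to have methyltransferase activity, and several sirtuins act in mitochondria.

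A673 and SKNMC are established Ewing sarcoma lines, and the compound THZ1 binds CDK7 covalently and inhibits it, CDK7 being the kinase of the general transcription factor TFIIH that phosphorylates the C-terminal domain of RNA polymerase II. Each line received the vehicle DMSO or THZ1 at 50 nM or 200 nM for 6 h, and its RNA was sequenced, giving 6 libraries with 1 per condition. The lower dose was meant to inhibit polymerase phosphorylation partly and the higher dose strongly. The comparisons with DMSO ask which transcripts differ after THZ1, and whether they depend on CDK7 itself was not tested. No condition was replicated. The spread between cultures is therefore unknown, and all differences are given as descriptions without a test.

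Writers such as the KMT2 and SETD1 proteins methylate H3K4 at active promoters and enhancers, SETD2 methylates H3K36 in transcribed gene bodies, and the KAT enzymes neutralise lysine charge by acetylation, which bromodomain proteins read. Erasers reverse these marks: KDM1 enzymes are flavin-dependent amine oxidases, the other KDM families are oxygenases that need iron and 2-oxoglutarate, HDAC enzymes mostly use zinc, and sirtuins consume NAD+. The fusion protein EWS-FLI1, which drives Ewing sarcoma, is known to recruit both activating and repressive chromatin enzymes, and inhibitors of KDM1A and of HDAC enzymes have been studied in this tumour.

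The sequences upstream of 4 members are shown because they carry the main patterns described here: KAT5 and KDM4A had lower values in all 4 THZ1 libraries, KMT2E was higher at the low dose and lower at the high dose, and HDAC1 was the abundant member with higher values. Each is the 250 bases before the RefSeq gene start in GRCh38.p14, read 5′ to 3′ on the strand of the gene. Capitals mark matches on either strand to 4 motifs. The GC box was searched as GGGCGG. The box bound by NF-Y was searched as CCAAT. The ETS core, which proteins such as FLI1 bind, was searched as CGGAAG. The box bound by the TATA-binding protein was searched as TATAAA. The KAT5 window lies at chr11:65712002-65712251, that of KDM4A at chr1:43649899-43650148, that of KMT2E at chr7:105013955-105014204 and that of HDAC1 at chr1:32291833-32292082, all on the plus strand.
KAT5: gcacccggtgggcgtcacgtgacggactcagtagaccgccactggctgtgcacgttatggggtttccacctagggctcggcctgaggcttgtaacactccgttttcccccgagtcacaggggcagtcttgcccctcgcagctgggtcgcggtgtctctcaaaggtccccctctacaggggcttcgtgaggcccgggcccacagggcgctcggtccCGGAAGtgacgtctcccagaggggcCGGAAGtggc
KDM4A: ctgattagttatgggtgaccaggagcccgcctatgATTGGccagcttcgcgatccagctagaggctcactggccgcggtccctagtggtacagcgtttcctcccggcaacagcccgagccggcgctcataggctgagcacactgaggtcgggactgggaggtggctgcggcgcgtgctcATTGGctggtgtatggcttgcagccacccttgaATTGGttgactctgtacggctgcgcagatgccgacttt
KMT2E: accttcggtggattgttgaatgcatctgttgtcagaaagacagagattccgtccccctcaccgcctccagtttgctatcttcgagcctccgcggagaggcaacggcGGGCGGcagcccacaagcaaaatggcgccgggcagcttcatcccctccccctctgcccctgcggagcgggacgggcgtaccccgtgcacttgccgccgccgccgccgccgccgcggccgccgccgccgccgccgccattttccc
HDAC1: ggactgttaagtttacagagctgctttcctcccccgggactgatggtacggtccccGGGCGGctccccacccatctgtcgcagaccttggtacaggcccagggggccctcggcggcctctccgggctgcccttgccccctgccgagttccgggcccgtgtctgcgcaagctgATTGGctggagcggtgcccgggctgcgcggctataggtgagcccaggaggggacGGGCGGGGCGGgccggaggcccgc

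KAT5 holds 2 ETS cores close to its start, KDM4A holds 3 CCAAT boxes on the minus strand, KMT2E holds 1 GC box, and HDAC1 holds 3 GC boxes, of which 1 pair overlaps, and 1 CCAAT box. RefSeq windows were found for 52 of the 58 members. A GC box was present in 39 of the 52 (75%), against 42.6% of all 35116 windows of the same length, and an ETS core in 20 (38.5%), against 16.5%. A CCAAT box was present in 19 (36.5%), against 32.0%, and a TATA box in 1 (1.92%), against 10.7%. The median GC content of the members' windows was 66.4%, against 58.0% for all windows. The background was counted per window and not limited to protein-coding or active genes, while each member was counted once. Whether the members differ from other active protein-coding genes in these motifs or in GC content was not tested. These are matches of letters, and binding at them was not measured here.

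Expression is given in FPKM, which scales the fragments of a gene to transcript length and to the fragments of the library, so levels of different genes can be set side by side. Differences are log2 ratios after adding 1 FPKM to each value, which understates the change of low genes, and a gene is called lower or higher when it is at least 2-fold apart on that scale. A gene was taken as active in a line when it was above 1 FPKM with DMSO. Since FPKM is relative to the library, a loss of RNA common to all genes leaves no trace, and fewer cells and less RNA per cell cannot be told apart. The sum of the listed values was 97.8% to 100.5% of that with DMSO, and the depth of the libraries is unknown. The share of that sum held by the ribosomal protein genes was 13.7%, 16.1% and 17.7% in A673 with DMSO, 50 nM and 200 nM, and 19.0%, 24.7% and 29.7% in SKNMC; its part in the differences below was not tested. Rescaling the libraries by the 75th percentile of active genes shifted the overall median by 0.22 to 0.48 on the log2 scale, and rescaling by the ribosomal protein genes shifted it by -0.20 to -0.46, so signs near 0 depend on the scale. All 7 Ewing sarcoma markers were above 1 FPKM in all 6 libraries. Of 8 markers of leukocytes, epithelium, endothelium and muscle, the endothelial gene PECAM1 was not found by its symbol. CD3E, EPCAM, CDH1, CDH5, MYOD1 and DES stayed under 1 FPKM in all 6 libraries, and CD3E was listed at 0 in each. The leukocyte gene PTPRC was at 10.2, 7.90 and 13.1 FPKM in SKNMC, and its part in the SKNMC values was not tested.

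With DMSO, 54 of the members were active in A673 and 55 in SKNMC, 52 of them in both. The 36 erasers with values summed to 690.4 FPKM in A673 and to 883 FPKM in SKNMC, against 289 and 343 FPKM for the 22 writers. HDAC1, HDAC2 and KDM1A held 315 and 390 FPKM of the eraser sums, and the median eraser stood at 9.56 FPKM in A673 and 12.6 FPKM in SKNMC, against 10.3 and 12.9 FPKM for the median writer. HDAC1 and HDAC2 are class I deacetylases and the catalytic subunits of the NuRD, Sin3 and CoREST complexes. HDAC2 was at 161, 181 and 161 FPKM in A673 and 182, 208 and 153 FPKM in SKNMC, each time in the order DMSO, 50 nM and 200 nM, which is the order used throughout. HDAC1 was at 81.2, 115 and 128 FPKM in A673 and 98.4, 137 and 146 FPKM in SKNMC. KDM1A, the H3K4 demethylase LSD1, was at 72.3, 93.5 and 62.1 FPKM in A673 and 109, 129.6 and 75.9 FPKM in SKNMC. HDAC2 was the most abundant member in every library, with HDAC1 and KDM1A next.

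Among the methyltransferases, SETD5 and SETD8 had the highest mean level with DMSO. SETD8, which places the monomethyl mark on H4K20, was at 35.7, 17.0 and 15.7 FPKM in A673 and 35.2, 21.4 and 16.3 FPKM in SKNMC. KAT2A and KAT5 led the acetyltransferases, SIRT1 and SIRT2 the sirtuins, and KDM1A and KDM5C, an H3K4 demethylase on the X chromosome at 39.8, 36.4 and 28.6 FPKM in A673 and 71.2, 72.7 and 44.5 FPKM in SKNMC, the demethylases. At the low end with DMSO, KDM4E was under 1 FPKM in both lines, SIRT4, HDAC11 and KDM4D in A673, and SETD6 and SETD9 in SKNMC. KDM4D and KDM4E are close paralogs, and how shared reads were split between them is unknown.

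**Figure D1:**
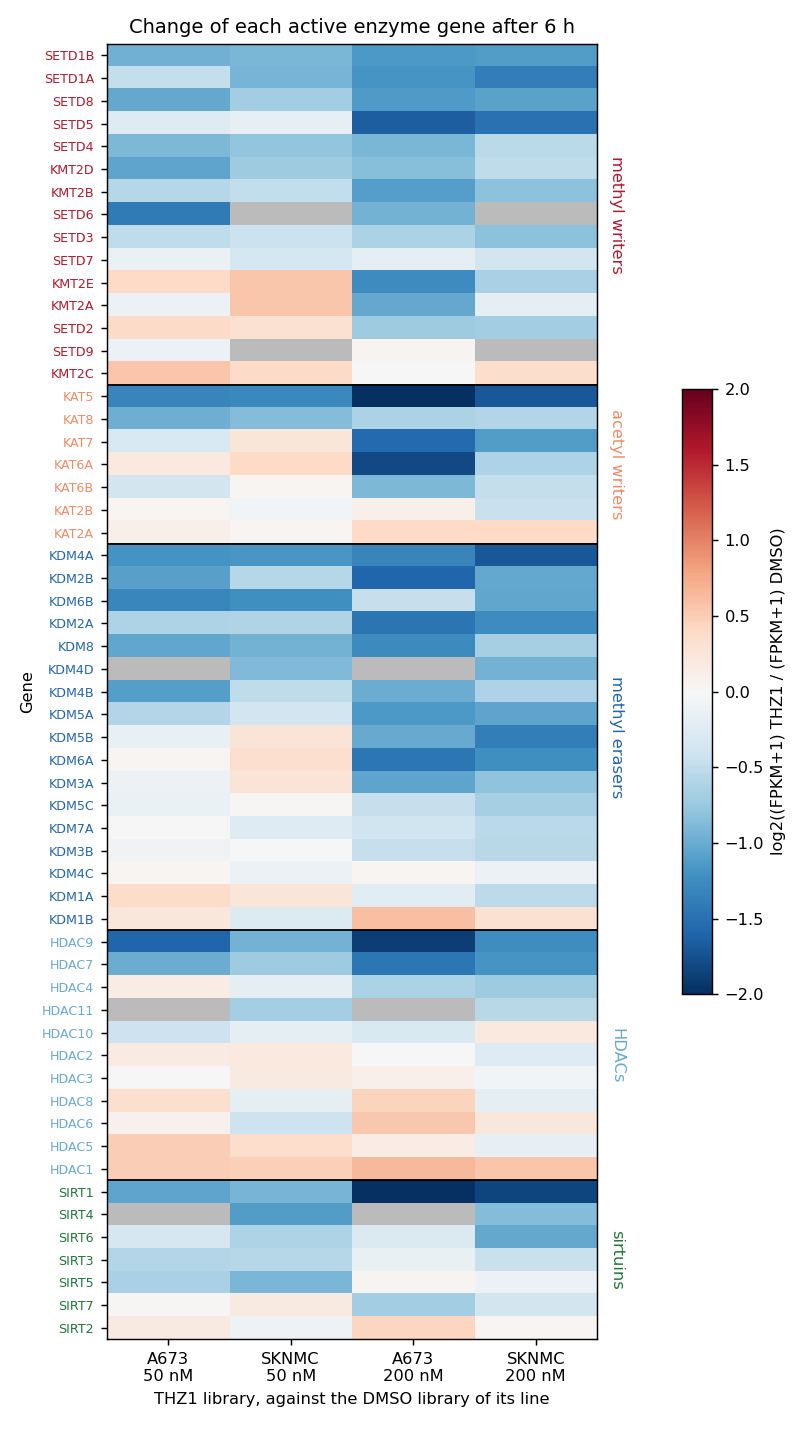
Log2 fold change, by colour, of the 57 members active in at least 1 line in 4 columns, A673 and SKNMC at 50 nM and then at 200 nM THZ1, each against the DMSO library of its line. Rows are grouped by enzyme class, and grey marks a member not active in that line. Most rows are lower at 200 nM, and KAT5 and KDM4A are lower by at least 2-fold in all 4 columns as deposited. When libraries are scaled by the 75th percentile of active genes, KDM4A stays past 2-fold only in SKNMC at 200 nM. HDAC1 is higher in all 4 as deposited, although it goes to -0.02 in SKNMC at 200 nM when libraries are scaled by the ribosomal protein genes.

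At 50 nM THZ1, 11 of the 54 active members (20.4%) were lower by at least 2-fold in A673, where 15.9% of all active genes were. In SKNMC it was 4 of 55 (7.27%), against 15.8% of all active genes. In A673 they were the writers KAT5, KMT2D, SETD6 and SETD8 and the erasers HDAC9, KDM2B, KDM4A, KDM4B, KDM6B, KDM8 and SIRT1, and in SKNMC they were KAT5, KDM4A, KDM6B and SIRT4. No member was higher by at least 2-fold in either line, against 0.343% of all active genes in A673 and 0.471% in SKNMC. KAT5, KDM4A and KDM6B were shared by the 2 lines, 3 of the 52 members active in both (5.77%), where the background was 11.4%. Below 0 in both lines were 26 of 52 members (50%), against 63.5%, and above 0 in both were 11 (21.2%), against 21.3%. None passed 1.5-fold upward, where the background was 1.78% in A673, 2.43% in SKNMC and 1.05% in both.

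KAT5, also called TIP60, acetylates histone H4 and H2A variants as the catalytic subunit of the NuA4 complex. It was at 20.0, 7.40 and 4.25 FPKM in A673 and 21.5, 8.19 and 5.97 FPKM in SKNMC. The DMSO library was the highest and the 200 nM library the lowest in each line, and no THZ1 value reached a DMSO value. Its log2 fold changes were -1.32 at the low dose and -2.00 at the high dose in A673, and -1.29 and -1.69 in SKNMC. KAT5 lies at chr11:65479466-65487075 in hg19, and 4.71 kb of it is covered by RNASEH2C on the opposite strand, whose own values did not follow it: RNASEH2C was at 24.2, 27.3 and 34.0 FPKM in A673 and 54.0, 59.5 and 66.0 FPKM in SKNMC. Whether reads were assigned by strand is not stated, so reads of such overlapping genes may be mixed. Active genes also overlap KMT2E (SRPK2, 3.66 kb), KDM2B (RNF34, 1.49 kb), KAT7 (FAM117A, 0.63 kb) and KDM5A (CCDC77, 0.18 kb), among others. RNF34 was lower with KDM2B, the log2 fold changes at 200 nM being -1.98 (A673) and -2.30 (SKNMC), and CCDC77 with KDM5A, with -2.25 and -1.93. The part of these overlaps in the members' values was not tested.

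KDM4A, a demethylase of H3K9 and H3K36, was at 14.3, 5.69 and 5.13 FPKM in A673 and 27.1, 11.6 and 7.67 FPKM in SKNMC. All 4 THZ1 values were below both DMSO values. Its log2 fold changes were -1.19 at the low dose and -1.32 at the high dose in A673, and -1.16 and -1.70 in SKNMC. KDM4A spans chr1:44115828-44171186 in hg19. In both lines and at both doses, KAT5 and KDM4A were the members lower by at least 2-fold as deposited. This was 2 of 52 (3.85%), against 8.70% of all genes active in both. Scaled by the 75th percentile of active genes, KDM4A fell short of 2-fold at -0.97 (50 nM) and -0.996 (200 nM) in A673. In SKNMC it was then at -0.89 at 50 nM and -1.18 at 200 nM. KAT5 stayed past 2-fold in all 4 comparisons under this scaling.

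KDM6B, the inducible H3K27 demethylase JMJD3 at chr17:7743221-7758114 in hg19, was at 3.92, 0.991 and 2.59 FPKM in A673 and 7.35, 2.58 and 3.06 FPKM in SKNMC. Here the low dose gave the lowest value in each line. The log2 fold changes were -1.31 at the low dose and -0.45 at the high dose in A673, and -1.22 and -1.04 in SKNMC, so that in A673 KDM6B was called at 50 nM and not at 200 nM. The paralog KDM6A, an H3K27 demethylase encoded on the X chromosome, had the reverse order of doses and is described with the high dose.

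At 200 nM, 21 of 54 active members (38.9%) were lower by at least 2-fold in A673, against 25.3% of all active genes, and 17 of 55 (30.9%) in SKNMC, against 27.3%. As deposited, no member was higher by at least 2-fold, where 0.126% and 0.462% of active genes were. Below 0 in both lines were 38 of 52 (73.1%), against 66.5%, and above 0 in both were HDAC1, HDAC6, KAT2A, KDM1B and SIRT2, 5 of 52 (9.62%), against 14.9%, and all 5 turned negative in SKNMC under at least 1 scaling. Both lines shared 15 of 52 (28.8%), against a background of 20.4%: the writers KAT5, KAT7, SETD1A, SETD1B, SETD5 and SETD8 and the erasers KDM2A, KDM2B, KDM4A, KDM5A, KDM5B, KDM6A, HDAC7, HDAC9 and SIRT1. SETD1A and SETD1B, the catalytic subunits of the H3K4 methyltransferase complexes named after them, had log2 fold changes of -1.17 and -1.14 in A673 and -1.39 and -1.11 in SKNMC. KDM2A and KDM2B, which bind unmethylated CpG islands and demethylate H3K36, had -1.46 and -1.58 in A673 and -1.26 and -1.02 in SKNMC. KDM5A and KDM5B, which remove H3K4 methylation, had -1.14 and -1.02 in A673 and -1.05 and -1.39 in SKNMC.

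SIRT1, a nuclear deacetylase that depends on NAD+, had the lowest log2 fold change of the members at 200 nM in both lines, -2.15 in A673 and -1.84 in SKNMC. It was at 24.3, 11.2 and 4.70 FPKM in A673 and 16.5, 8.18 and 3.88 FPKM in SKNMC. Each line went down in steps from DMSO to 50 nM to 200 nM. SIRT2, a largely cytoplasmic tubulin and histone deacetylase, was at 11.4, 13.0 and 15.7 FPKM in A673 and 15.8, 14.6 and 16.3 FPKM in SKNMC. Its log2 fold change at 200 nM was 0.43 in A673 and 0.05 in SKNMC. SIRT5, a mitochondrial enzyme that removes succinyl groups, was at 2.42, 1.18 and 2.54 FPKM in A673 and 3.38, 1.31 and 3.04 FPKM in SKNMC, lowest at 50 nM in each line.

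**Figure D2:**
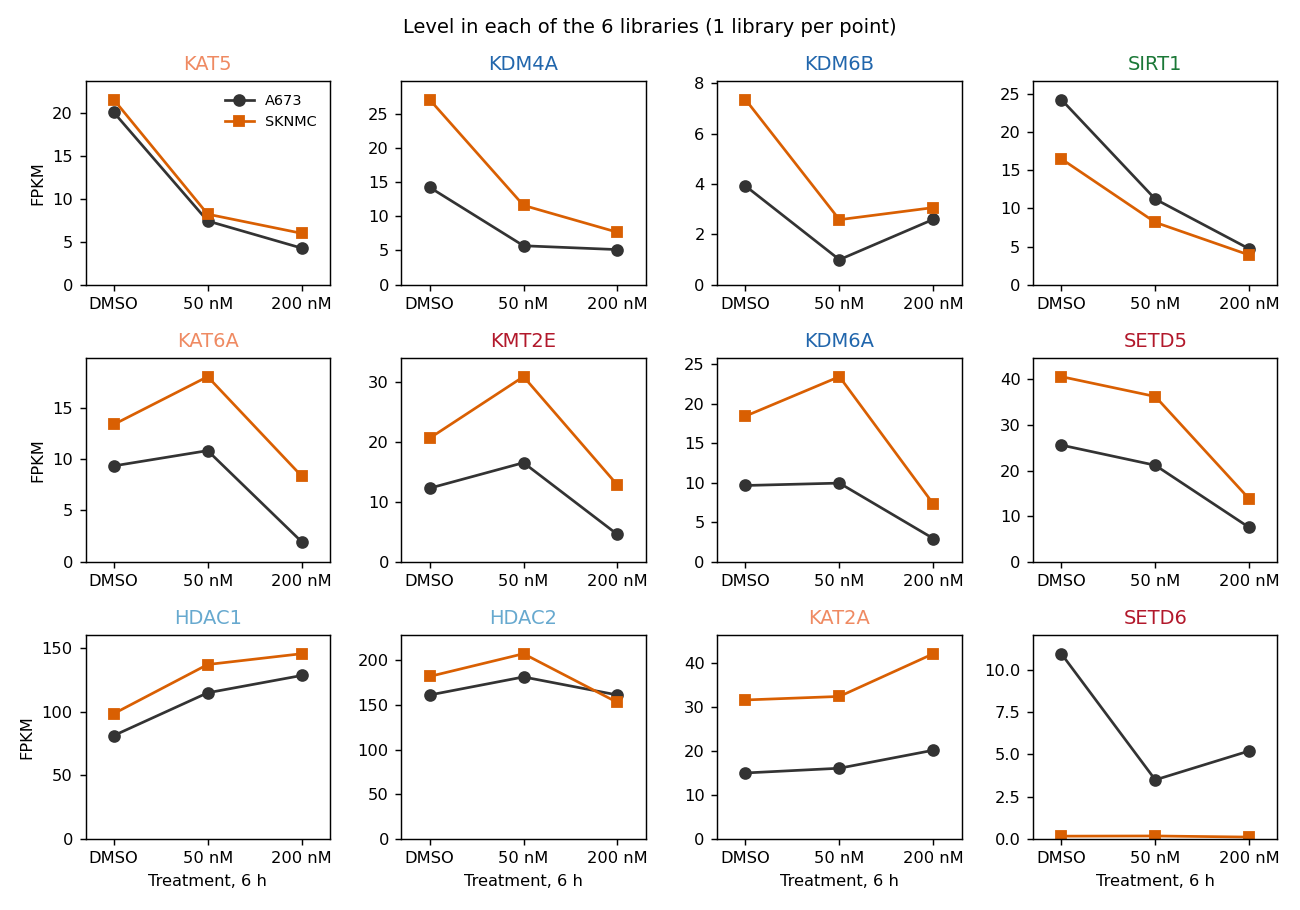
FPKM of 12 members in the 6 libraries, 1 panel per gene, with DMSO, 50 nM and 200 nM THZ1 as categories on the horizontal axis and FPKM on a linear vertical axis from 0. Each point is 1 library and a line joins those of a cell line. KAT5, KDM4A and SIRT1 step down from DMSO to 200 nM, KDM6B is lowest at 50 nM, and KMT2E is highest at 50 nM and lowest at 200 nM in both lines.

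The 2 doses did not give the same order of members. From 50 nM to 200 nM, 7 of 54 active members were lower by at least 2-fold in A673 (13.0%), against 7.44% of all active genes, and 7 of 55 in SKNMC (12.7%), against 8.39%. KAT6A, KAT7, KDM6A, KMT2E and SETD5 were shared, 5 of 52 (9.62%), against 5.22%. Below 0 were 35 members in A673 (64.8%), against 51.7%, and 38 in SKNMC (69.1%), against 62%, and below 0 in both were 33 of 52 (63.5%), against 45.7%. Above 0 in both were 13 (25%), against 30%. Higher by at least 1.5-fold from 50 nM to 200 nM were KDM6B and SIRT5 in A673, 2 of 54 (3.70%), against 2.33%, and HDAC6 and SIRT5 in SKNMC, 2 of 55 (3.64%), against 3.77%. KMT2E, a reader of H3K4 methylation by its PHD finger, was at 12.3, 16.5 and 4.55 FPKM in A673 and 20.6, 30.9 and 12.8 FPKM in SKNMC. KAT6A, the acetyltransferase MOZ that acts on H3K23, was at 9.34, 10.8 and 1.95 FPKM in A673 and 13.4, 18.1 and 8.36 FPKM in SKNMC. For both genes the 50 nM library was the highest and the 200 nM library the lowest of each line.

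KDM6A had a like order in both lines at 9.64, 9.94 and 2.93 FPKM in A673 and 18.4, 23.4 and 7.29 FPKM in SKNMC, although in A673 the DMSO and 50 nM values lay close together. SETD5, a SET domain protein of the NCoR complex, was at 25.6, 21.2 and 7.50 FPKM in A673 and 40.6, 36.2 and 13.8 FPKM in SKNMC, with the 50 nM value between the others. KAT7, the acetyltransferase HBO1 that acts on H3K14, was at 19.4, 15.6 and 5.96 FPKM in A673 and 18.7, 22.4 and 8.09 FPKM in SKNMC. SETD2 was at 5.95, 8.03 and 3.26 FPKM in A673 and 13.9, 17.4 and 8.22 FPKM in SKNMC, a log2 difference between the doses of -1.08 in A673 and just under 2-fold in SKNMC. Above 0 at 50 nM and below 0 at 200 nM in both lines were KAT6A, KDM1A, KDM6A, KMT2E, SETD2 and SIRT7, 6 of 52 (11.5%), against 6.93% of all genes active in both. KMT2E kept these signs in both lines under every scaling. The small values at 50 nM changed sign under at least 1 scaling for KAT6A and KDM6A in A673. They also did so for SETD2 and KDM1A in SKNMC and for SIRT7 in both lines. The values at 200 nM rose above 0 under a scaling for KDM1A, to 0.15 in A673 and 0.04 in SKNMC, and for SIRT7 in SKNMC, to 0.13. Members above 0 at 50 nM and then lower by at least 2-fold from 50 nM to 200 nM numbered 4 of 54 in A673 (7.41%), against 2.95%, and 6 of 55 in SKNMC (10.9%), against 3.75%.

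**Figure D3:**
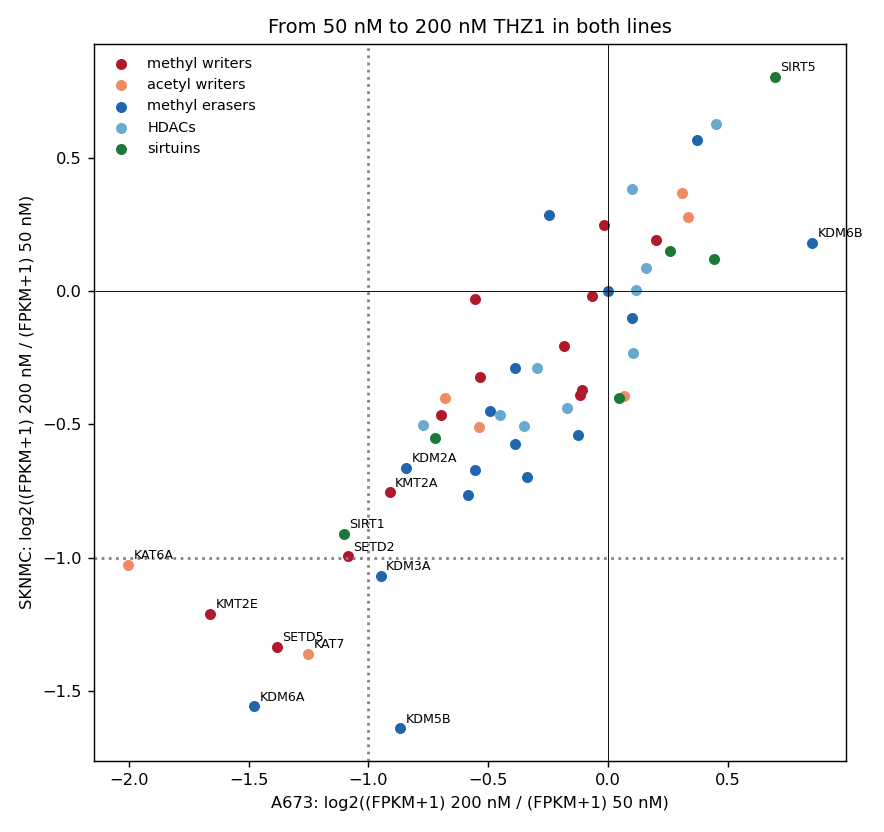
Log2 ratio of 200 nM to 50 nM THZ1 in A673 on the horizontal axis and in SKNMC on the vertical axis for the 52 members active in both lines, 1 point per gene coloured by class, with dotted lines at 2-fold lower. KAT6A, KAT7, KDM6A, KMT2E and SETD5 lie under both dotted lines, and KDM6B and SIRT5 lie at the upper right.

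The order of members was alike in A673 and SKNMC. Across the 52 members active in both, Spearman's rho between the lines was 0.830 at 50 nM, 0.845 at 200 nM and 0.884 for 200 nM against 50 nM, where it was 0.842, 0.820 and 0.762 across all genes active in both. These are correlations across genes, which are not independent replicates, and both doses of a line share its DMSO library.

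The gap between writers and erasers was wider in A673. The median log2 fold change of the active writers in A673 was -0.33 at 50 nM and -0.93 at 200 nM, against -0.12 and -0.45 for the active erasers and -0.27 and -0.40 for all active genes. In SKNMC the writers had -0.25 and -0.63, the erasers -0.27 and -0.61 and all active genes -0.32 and -0.55. Writers minus erasers was thus -0.21 and -0.48 in A673 and 0.015 and -0.022 in SKNMC; whether the lines differ in this was not tested. Lower by at least 2-fold at 200 nM were 10 of 22 writers (45.5%) and 11 of 32 erasers (34.4%) in A673, where the background was 25.3%. For SKNMC the counts were 6 of 20 writers (30%) and 11 of 35 erasers (31.4%), near the background of 27.3%. At 50 nM the erasers had the larger share in each line as deposited. The A673 counts were then 4 of 22 writers (18.2%) and 7 of 32 erasers (21.9%), with a background of 15.9%. Those for SKNMC were 1 of 20 (5%) and 3 of 35 (8.57%), with a background of 15.8%. Scaled by the ribosomal protein genes, the order in SKNMC at 50 nM was the reverse, with 30% of writers and 22.9% of erasers lower. The Wilson 95% intervals of the A673 shares at 200 nM run over genes and not over cultures. They were 26.9% to 65.3% for writers and 20.4% to 51.7% for erasers and overlapped.

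The erasers comprise 3 classes with medians of their own. In A673 at 200 nM the median was -1.01 for the demethylases and 0.050 for the HDAC genes, with -0.21 for the sirtuins, -0.95 for the methyltransferases and -0.90 for the acetyltransferases. In SKNMC at 200 nM it was -0.81 for the demethylases, -0.20 for the HDAC genes, -0.45 for the sirtuins, -0.69 for the methyltransferases and -0.58 for the acetyltransferases. At this dose the demethylases had the lowest median of the classes and the HDAC genes the highest in each line, but the classes overlapped: HDAC9 in A673, at -1.88, was below every demethylase, and the 95% intervals of the A673 medians, which run over genes, were -1.32 to -0.40 for demethylases and -1.44 to 0.54 for HDAC genes. At 50 nM the order was another, with -0.14, 0.12 and -0.46 for demethylases, HDAC genes and sirtuins in A673 and -0.27, -0.20 and -0.62 in SKNMC. The HDAC genes summed to 373, 399 and 391 FPKM in A673 and to 441, 482 and 421 FPKM in SKNMC. Writers went from 289 to 215 and 157 FPKM in A673 and from 343 to 296 and 214 FPKM in SKNMC. Erasers went from 690.4 to 675 and 592 FPKM and from 883 to 890 and 676 FPKM. The ratio of eraser to writer FPKM was 2.39, 3.14 and 3.78 in A673 and 2.57, 3.01 and 3.16 in SKNMC, a ratio within a library that no scaling of the library moves. Without the 3 abundant erasers HDAC1, HDAC2 and KDM1A, a choice made after the values were seen, it was 1.30, 1.33 and 1.53 in A673 and 1.44, 1.41 and 1.41 in SKNMC.

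**Figure D4:**
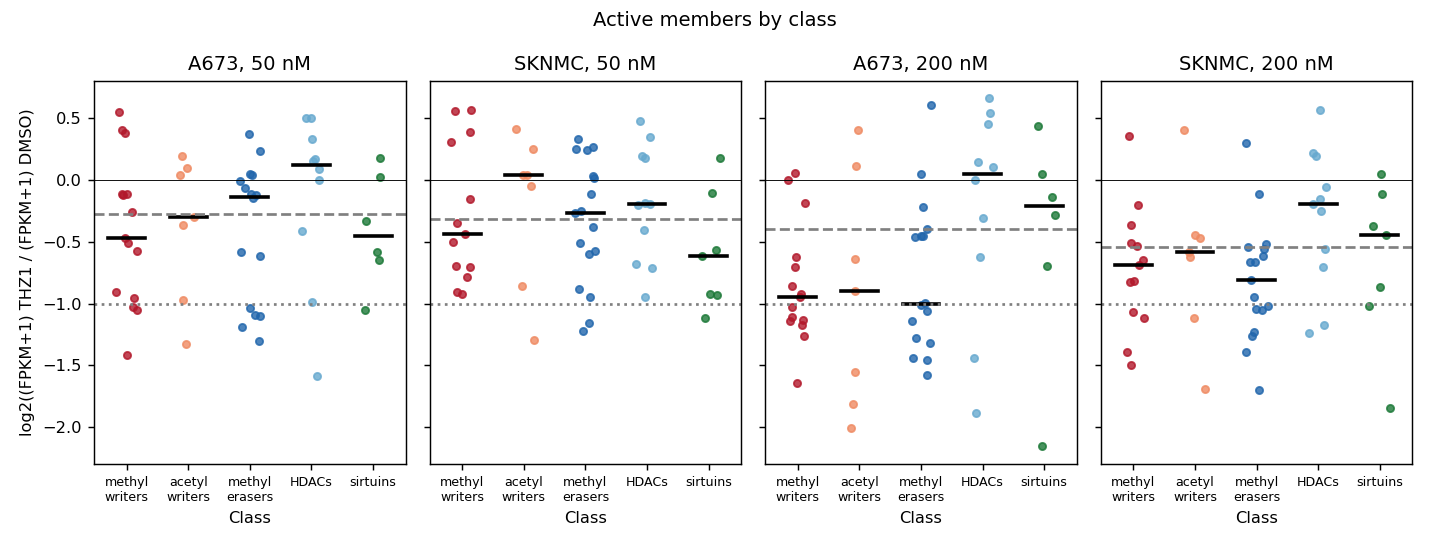
Log2 fold change against DMSO of the active members by enzyme class in the 4 comparisons, 1 point per gene with a bar at the median of the class, a dashed line at the median of all active genes and a dotted line at 2-fold lower. At 200 nM the bars of A673 and SKNMC lie at 0.050 and -0.20 for the HDAC genes and at -1.01 and -0.81 for the demethylases.

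HDAC1 had log2 fold changes of 0.50 at the low dose and 0.66 at the high dose in A673, and 0.47 and 0.56 in SKNMC. The SKNMC value at 200 nM turned to -0.02 under scaling by the ribosomal protein genes and the other 3 stayed above 0. Under the 75th percentile scaling the values at 200 nM passed 2-fold, at 1.03 in A673 and 1.13 in SKNMC. HDAC1 was then 1 of 54 members higher by 2-fold in A673, against 112 of 11077 active genes, and 1 of 55 in SKNMC, against 515 of 11896. As deposited, HDAC1 and KDM1B, the LSD2 demethylase, were the members higher by at least 1.5-fold at 200 nM in A673. This was 2 of 54 (3.70%), against 1.7% of active genes, and in SKNMC there was none, against 2.81%. KAT2A, the SAGA acetyltransferase GCN5, was at 14.98, 16.1 and 20.2 FPKM in A673 and 31.6, 32.4 and 42.1 FPKM in SKNMC, highest at 200 nM in each line. Its log2 fold change at 200 nM was 0.40 in A673 and 0.40 in SKNMC, and the latter turned to -0.17 when scaled by the ribosomal protein genes. Under every scaling, higher members at 200 nM in A673 were HDAC1, HDAC6, HDAC8, KAT2A, KDM1B and SIRT2, 6 of 54 (11.1%), against 10.8% of active genes, and there was none of 55 in SKNMC, against 3.52%. Lower under every scaling at this dose were 35 of 54 (64.8%), against 53.8%, and 36 of 55 (65.5%), against 53.7%. At 50 nM, 27 of 54 were lower in A673 (50%), against 53.6%, and 8 higher (14.8%), against 13.4%. In SKNMC 28 of 55 were lower (50.9%), against 54.4%, and 7 higher (12.7%), against 9.2%.

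Class IIa deacetylases, which shuttle between nucleus and cytoplasm and repress MEF2 target genes, went different ways. HDAC9 was at 24.0, 7.35 and 5.79 FPKM in A673 and 42.4, 21.5 and 17.4 FPKM in SKNMC and HDAC7 at 28.4, 13.8 and 9.84 FPKM in A673 and 12.7, 7.35 and 5.06 FPKM in SKNMC, both highest with DMSO and lowest at 200 nM. HDAC5 was at 5.03, 7.49 and 5.65 FPKM in A673 and 23.1, 29.6 and 20.6 FPKM in SKNMC, highest at 50 nM. HDAC4 had log2 fold changes of 0.15 at the low dose and -0.63 at the high dose in A673, and -0.20 and -0.70 in SKNMC, and its values at 50 nM changed sign under another scaling in each line.

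Members with longer genes had higher median log2 fold changes at 50 nM, and so did active protein-coding genes in general. Gene spans, taken from the hg19 coordinates of the table, had a median of 45.9 kb over the members, and the median log2 fold change of the shorter and the longer active members was -0.58 and -0.07 in A673 and -0.69 and -0.12 in SKNMC. Across the active writers, Spearman's rho between span and log2 fold change at 50 nM was 0.658 in A673 (n = 22) and 0.686 in SKNMC (n = 20). It was 0.0455 (n = 32) and 0.187 (n = 35) across the erasers and 0.180 (n = 10819) and 0.174 (n = 11551) across all active protein-coding genes. Across all active members it was 0.286 in A673 and 0.369 in SKNMC, and across the HDAC genes -0.030 and -0.3. Split at the members' median span, all active protein-coding genes had medians of -0.35 (shorter) and -0.16 (longer) in A673. In SKNMC these were -0.41 and -0.21. Writers shorter than the median span had median log2 fold changes of -0.93 in A673 and -0.75 in SKNMC, and longer ones -0.04 and 0.17. The short group holds KAT5, SETD1A, SETD1B, SETD8, KMT2B and also KAT2A, which was not lower, and the long group KMT2A, KMT2C, KMT2E, SETD2 and KAT6A. The long group also holds SETD3, at -0.51 in A673 and -0.44 in SKNMC at 50 nM, SETD5, at -0.26 and -0.16, SETD7, at -0.13 and -0.35, KAT6B, at -0.36 and 0.04, and KAT2B, at 0.04 and -0.05.

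From 50 nM to 200 nM the sign was the reverse. Spearman's rho of span and log2 difference was -0.420 in A673 and -0.398 in SKNMC across the active members, against -0.237 and -0.143 across all active protein-coding genes. The median was 0.10 in both lines for the shorter members and -0.49 in A673 and -0.51 in SKNMC for the longer ones. The fold change at 200 nM against DMSO had a rho with span of 0.127 in A673 and 0.421 in SKNMC across the writers, of -0.265 and -0.229 across the erasers and of -0.131 and -0.028 across all active members. These correlations run across genes of the same 2 libraries, and the DMSO library is shared by both doses. The 50 nM library enters the change at 50 nM and the difference between the doses with opposite sign. The reversal is therefore not independent of the relation at 50 nM. The relation to span was looked at with results of these data known.

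**Figure D5:**
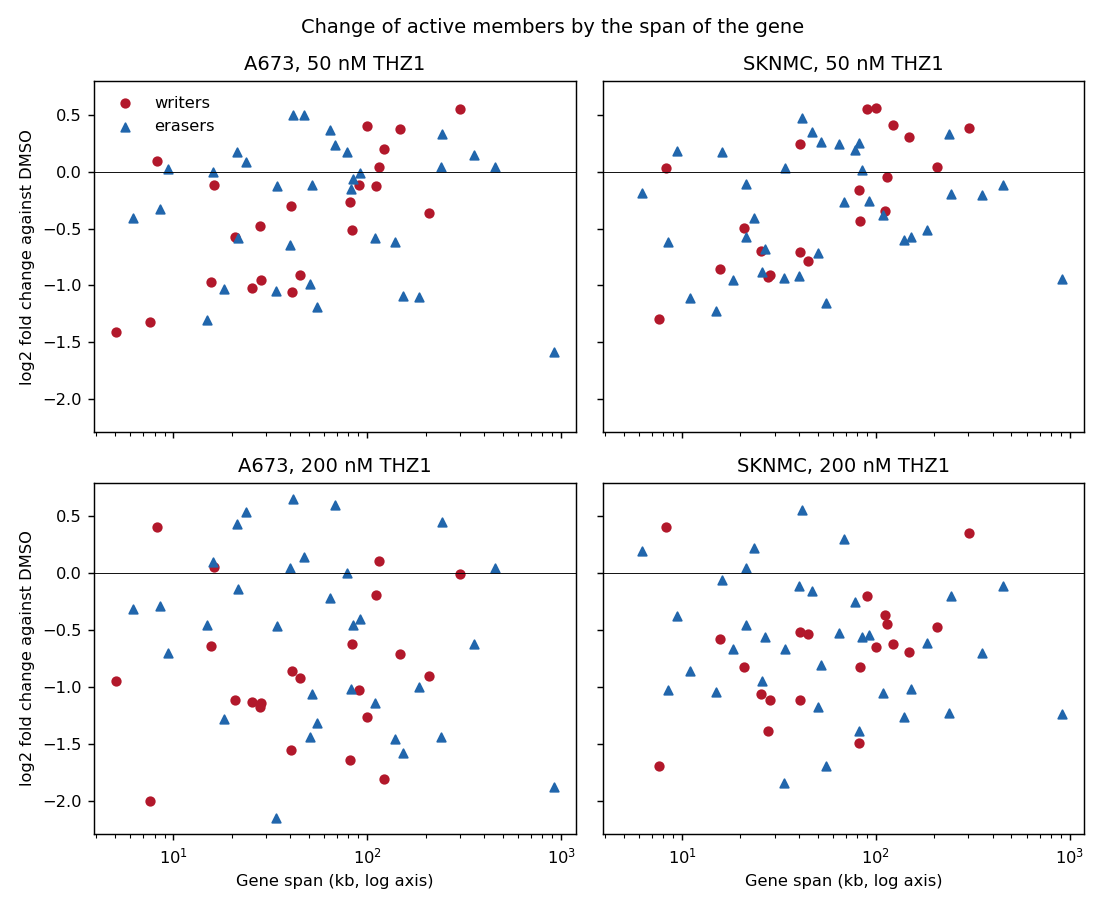
Gene span in kb on a log horizontal axis and log2 fold change against DMSO on the vertical axis, 1 panel for each cell line and dose and 1 point per active member, with circles for writers and triangles for erasers. At 50 nM, writers under 45.9 kb have median log2 fold changes of -0.93 in A673 and -0.75 in SKNMC, and longer writers -0.04 and 0.17.

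Without THZ1, 10 of the 57 members active in either line differed at least 2-fold between A673 and SKNMC (17.5%), against 23.5% of all such genes. Higher in A673 were SETD6, SETD9 and HDAC7, 3 of 57 (5.26%), against 8.42%. SETD6, which methylates the NF-kB subunit RELA, lies at chr16:58549382-58554431 in hg19 and was at 10.9, 3.49 and 5.20 FPKM in A673 and 0.156, 0.167 and 0.102 FPKM in SKNMC. SETD9, at chr5:56205086-56221359, was at 10.5, 9.62 and 10.9 FPKM in A673 and 0.0491, 0 and 0.0296 FPKM in SKNMC. Both were thus under 1 FPKM in every SKNMC library and above it in every A673 library. SETD9 is overlapped for 5.93 kb by MIER3 on the opposite strand.

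Higher in SKNMC were HDAC5, HDAC11, KAT2A, KDM4C, KDM5B, KDM7A and SETD2, 7 of 57 (12.3%), against 15%. KDM5B was at 3.09, 2.69 and 1.02 FPKM in A673 and 16.8, 20.2 and 5.79 FPKM in SKNMC. KDM7A, a demethylase of H3K9 and H3K27, was at 2.31, 2.27 and 1.51 FPKM in A673 and 10.5, 8.65 and 6.91 FPKM in SKNMC. KDM4C was at 1.39, 1.46 and 1.46 FPKM in A673 and 3.94, 3.56 and 3.57 FPKM in SKNMC. HDAC11, the only class IV deacetylase, was at 0.301, 0.280 and 0.394 FPKM in A673 and 2.35, 1.09 and 1.28 FPKM in SKNMC. For these 4 genes every SKNMC value was above every A673 value.

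HDAC8, a class I deacetylase that acts on cohesin, was at 6.61, 8.56 and 9.38 FPKM in A673 and 10.4, 8.89 and 8.91 FPKM in SKNMC, higher with THZ1 than with DMSO in A673 and lower in SKNMC. KAT2B, the acetyltransferase PCAF, was at 1.48, 1.55 and 1.67 FPKM in A673 and 3.42, 3.27 and 2.25 FPKM in SKNMC, and its A673 values differ by little. With KDM4C, these were the members with opposite signs in the 2 lines at both doses, 3 of 52 (5.77%), against 5.27% of all genes active in both, and for all 3 the sign in at least 1 comparison changed under another scaling.

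Genes of the same pathway with other names were counted in 4 lists. Over all active genes the share lower by at least 2-fold was 15.9% and 25.3% in A673 and 15.8% and 27.3% in SKNMC at the low and the high dose. Of 27 active writers outside the symbol rule, such as EZH2, EP300 and DOT1L, 5 were lower by at least 2-fold in A673 at 50 nM and 12 at 200 nM, and 6 and 9 in SKNMC (18.5%, 44.4%, 22.2% and 33.3%), while 1 was higher, ASH1L in A673 at 50 nM, named after its value was seen (log2 fold change 1.07, and 0.52 in SKNMC). Of 6 active erasers of this kind, 2 and 3 were lower in A673 and 3 and 3 in SKNMC. Of the partner subunits of the enzymes, 7 and 18 of 49 were lower in A673 (14.3% and 36.7%) and 6 and 16 of 50 in SKNMC (12% and 32%), with none higher. Of 15 bromodomain and other mark readers, 1 and 4 were lower in A673 (6.67% and 26.7%) and 0 and 3 in SKNMC (0% and 20%), and BRD2 was higher at 50 nM in both lines.

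SUV39H1, the H3K9 methyltransferase of heterochromatin, had log2 fold changes at 50 nM of -1.73 in A673 and -1.90 in SKNMC. The other genes of these lists that were lower by at least 2-fold in A673 and SKNMC at 50 nM were SETDB2, SETMAR, SUV420H2, JMJD6, HR, MEN1, ING4, TADA2A, SUPT20H and MBD3. Of all genes active in both lines, 11.4% were lower by at least 2-fold in both at this dose. These genes are therefore given as names and not as an excess. MEN1, the menin subunit of the KMT2A and KMT2B complexes, had -1.19 and -1.24, and JMJD6, an oxygenase, had -1.55 and -1.82. BRD2, a bromodomain protein that reads acetylated histone H4, was at 95.4, 194 and 75.8 FPKM in A673 and 110.4, 241 and 78.9 FPKM in SKNMC, a log2 fold change of 1.02 and 1.12 at 50 nM with the 200 nM value the lowest of each line, which is the order also seen for KMT2E and KAT6A.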

How the data were processed

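RNA-seq values of 6 libraries were used, grouped by the cell line, agent and dose of the sample labels. Per the methods of the study, TruSeq libraries were read as 100-bp pairs on a HiSeq 2000, aligned to hg19 with STAR and quantified with StringTie on Ensembl 75; the submitters' processing notes name STAR and Cufflinks. The authors deposited FPKM per gene. The table is titled as average expression, but the labels list a single library for each condition, and each column was treated as such. The authors also deposited 4 columns of log2 fold change, which were not used. No FPKM column of other samples was present. Strand use is not given in the sources used here.

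Log2 fold changes were computed with a pseudocount of 1 FPKM, and genes above 1 FPKM with DMSO counted as active. With 1 library per condition no test was made. The sum, the 75th percentile of active genes and the median of 85 ribosomal protein genes served as 3 other scalings. Results were recomputed with a pseudocount of 0.1, a 1.5-fold threshold, other filters on low values, the protein-coding background alone and a shorter list of members. That list left out SETD3, SETD4, SETD5, SETD6, KMT2E, HDAC6, HDAC10, SIRT3, SIRT4 and SIRT5 as not mainly histone enzymes. It kept others with known substrates besides histones, such as HDAC8. The depth is unknown, so no counting interval could be given. The steps were tested on simulated data.

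Values of all 6 libraries are given for members that were lower by at least 2-fold in A673 and SKNMC at 50 nM, the 2 most abundant members of each class, members with opposite signs in the 2 lines (at least 0.2 in size) and members at least 2-fold apart between the DMSO libraries; no member was higher by at least 1.5-fold in both lines. KMT2E, KAT6A, KDM6A, KAT7, HDAC9 and SIRT5 were added after their values were seen. The members and lists were chosen with earlier results of these data known. Promoter windows are of RefSeq GRCh38.p14 and were not mixed with the hg19 coordinates. Python 3.11.15, pandas 2.3.3, scipy 1.17.1 and matplotlib 3.10.9 were used.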

Additional observations from a re-analysis of the deposited data

Results flagged for a closer look

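HDAC8 and KAT2B had log2 fold changes of opposite sign in the 2 lines at both doses as deposited, but the signs of KAT2B in A673 and of HDAC8 in SKNMC at both doses, and of KAT2B in SKNMC at 50 nM, changed under another scaling, and at 50 nM KAT2B was at 0.04 in A673 and -0.05 in SKNMC. The log2 fold change of HDAC8 was higher in A673 than in SKNMC by 0.53 at 50 nM and by 0.64 at 200 nM. For KAT2B the gap was 0.09 at 50 nM and 0.55 at 200 nM, with A673 again the higher. With 1 library per condition neither gap between the lines was tested.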

How the results depend on the processing

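Of 172 recomputed class results, 145 lay inside the interval of the main result across genes, with the sign of a median or difference kept. These intervals are wide, so a result inside its interval can still differ in size. Scaling by the 75th percentile took 32 of 218 changes of single members from past 2-fold to under it and 2 the other way. Scaling by the ribosomal protein genes took 35 past 2-fold. No change past 2-fold reversed its sign, but the scalings shifted the overall median by 0.48 or less, too little to reverse such a change. Scaling by the 75th percentile gave, in A673 at 50 nM, 6.25% of erasers lower and an eraser median of 0.12, in A673 at 200 nM 18.2% of writers lower, in SKNMC at 50 nM medians of 0.030 for writers and -0.032 for erasers, and in SKNMC at 200 nM 5.00% of writers and 5.71% of erasers lower, medians of -0.11 and -0.14 and a writer minus eraser difference of 0.022. Scaling by the ribosomal protein genes gave a writer median of -1.22 in A673 at 200 nM. In SKNMC it gave 30% of writers and 22.9% of erasers lower with a difference of -0.024 at 50 nM, and 65.0% and 54.3% lower with medians of -1.16 and -1.04 at 200 nM. A 1.5-fold threshold gave 77.3% of writers in A673 at 200 nM, 35.0% of writers and 34.3% of erasers in SKNMC at 50 nM, and 55.0% and 51.4% at 200 nM. A pseudocount of 0.1 gave 22.9% of erasers in SKNMC at 50 nM and a difference of 0.022 at 200 nM. Genes above 5 FPKM gave a difference of -0.19 in SKNMC at 50 nM, and the shorter list of members, without those taken as not mainly histone enzymes, gave 0.064 at 200 nM. The causes were not tested.

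Counts of members lower by at least 2-fold, in A673 at 50 nM and 200 nM and then SKNMC, were 4, 11, 3 and 3 under the 75th percentile scaling (11%, 17.3%, 10.3% and 13.4% of all active genes), 15, 27, 14 and 32 under the ribosomal scaling (21.5%, 34.8%, 25.2% and 50.4%) and 15, 25, 11 and 20 with a pseudocount of 0.1 (21.6%, 31.1%, 22.5% and 34.3%). In SKNMC at 50 nM the members' share, 7.27% against 15.8% as deposited, was 25.5% against 25.2% under the ribosomal scaling. No paired analysis was possible because each condition has 1 library, and no replicate could be left out.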

Other observations

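SETD6 and SETD9, which were under 1 FPKM in SKNMC, have neighbours that were expressed in both lines. CNOT1 and MIER3 overlap SETD6 and SETD9 from the opposite strand. Their lower hg19 coordinates lie 4472 bp and 10342 bp above those of SETD6 and SETD9. As both neighbours are on the minus strand, these coordinates are where they end and not where they start. With DMSO, CNOT1 was at 59.9 FPKM in A673 and 46.0 FPKM in SKNMC, and MIER3 at 9.89 and 11.8 FPKM. In the THZ1 libraries SETD6 stayed between 0.102 and 0.167 FPKM in SKNMC. SETD9 was listed at 0 in SKNMC at 50 nM and stood at 0.0296 FPKM at 200 nM.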
